A study of Mus musculus with 7 samples.

Results

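The insulin-like growth factor (IGF) genes described here are the ligands Igf1 and Igf2, the receptor Igf1r and the binding protein genes Igfbp2 to Igfbp7, chosen by symbol. They are 9 of the 48321 genes counted in the files, and all 9 passed the filter on low counts that left 18387 genes for testing. Total RNA was sequenced from the ventrolateral region (VMHvl) of the ventromedial hypothalamus (VMH), dissected by hand from ovariectomized female mice, which lack the main source of circulating estrogen. The EB group was 4 mice given a subcutaneous injection of 1 µg estradiol benzoate, an ester of estradiol, and the VEH group was 3 mice given vehicle. Tissue was taken 4 hours after the injection in both groups, and 15 ng of RNA from a single mouse made each library. All mice were of mixed background with 129/Sv ancestry and descend from a floxed Esr1 line; the sources used here do not give their age or the state of that allele. The comparison asks which transcripts of this tissue differed shortly after estrogen replacement.

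IGF1 and IGF2 are secreted peptides related to insulin, and both signal through the receptor tyrosine kinase encoded by Igf1r. IGF-binding proteins hold the ligands outside the cell, prolong their life, and release them when proteases cut the binding protein; IGFBP7 is a relative that binds IGFs weakly. In the brain, IGF1 is made by neurons, microglia and vascular cells, and IGF2 mainly by the meninges, choroid plexus and vessels. In the rat hypothalamus, estradiol and IGF1 signalling are known to act together in the control of gonadotropin release and female reproductive behavior.

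Library totals ran from 21037303 to 33302293 counts, with 23668 to 25901 genes detected per library. All 14 markers of VMH and VMHvl neurons passed the filter, and their summed level was 1733 to 2040 CPM (counts scaled to the TMM-normalized library size) in the EB libraries and 1575 to 2164 CPM in the VEH libraries. Of these 14 genes 3 were called higher and 1 lower with EB, so the sum holds genes that differed between the groups in both directions. Nr5a1, the transcription factor that defines the VMH, was low at 2.52 ± 1.11 CPM with EB (SD, n = 4) and 2.03 ± 1.02 CPM with VEH (SD, n = 3). Libraries EB 4 and VEH 1 stood apart in markers of cells other than neurons. Pituitary markers summed to 31.2 CPM in EB 4, above the 3.72 to 16.1 CPM elsewhere, and markers of meningeal and vascular fibroblasts summed to 462 CPM in VEH 1, above the 42.3 to 234 CPM of all other libraries. In bulk tissue, fewer cells of a type and less RNA per cell cannot be told apart.

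None of the 9 IGF genes was called between EB and VEH by the quasi-likelihood test of edgeR, with a threshold of 0.05 on the Benjamini-Hochberg adjusted p, where 0.952% of tested genes were called. One gene, Igfbp4, which encodes a soluble inhibitor of IGF action, had an unadjusted p under 0.05 (1 of 9, against 9.04% of all tested genes). It was also the 1 gene of the 9 whose groups did not overlap, against 9.1% of all tested genes in either direction and 3.99% with the EB group lower. DESeq2, which called 2.68% of the 13394 genes it gave an adjusted p, called 1 of the 9, Igfbp4. It gave no adjusted p for Igfbp6. Limma-voom, which called 0.816% of all genes, called 0 of the 9. The estimate was positive for 2 genes (Igf1 and Igf1r) and negative for 7, with a median log2 change of −0.35, against −0.01 over all tested genes. This lean depended on library VEH 1. Without it the estimates of Igf2 (0.66), Igfbp2 (0.42), Igfbp3 (0.062) and Igfbp7 (0.17) were positive too. Those of Igfbp4 (−0.77), Igfbp5 (−0.19) and Igfbp6 (−0.14) stayed negative.

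The promoters of 3 binding protein genes are given because they stand for the 3 patterns met in the counts. Igfbp4 was the gene with separate groups, Igfbp5 was the most abundant of the family, and Igfbp2 varied most between mice. Each run is the 250 bases before the RefSeq transcript start on the GRCm38.p6 assembly, 5′ to 3′ on the gene's own strand, at chr11:99040994-99041243 (+), chr1:72874866-72875115 (−) and chr1:72824230-72824479 (+). Capitals mark the TATA box TATAAA in Igfbp4 and the GC box GGGCGG in Igfbp2.
Igfbp4: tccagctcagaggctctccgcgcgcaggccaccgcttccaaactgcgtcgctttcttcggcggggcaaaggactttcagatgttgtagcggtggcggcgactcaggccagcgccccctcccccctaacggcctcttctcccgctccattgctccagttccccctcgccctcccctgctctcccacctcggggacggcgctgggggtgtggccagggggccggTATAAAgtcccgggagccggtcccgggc
Igfbp5: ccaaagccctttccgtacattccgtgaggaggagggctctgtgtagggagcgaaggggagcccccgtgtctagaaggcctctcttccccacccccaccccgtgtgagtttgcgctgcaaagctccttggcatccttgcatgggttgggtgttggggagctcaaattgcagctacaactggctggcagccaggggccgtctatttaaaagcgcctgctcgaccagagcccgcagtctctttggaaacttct
Igfbp2: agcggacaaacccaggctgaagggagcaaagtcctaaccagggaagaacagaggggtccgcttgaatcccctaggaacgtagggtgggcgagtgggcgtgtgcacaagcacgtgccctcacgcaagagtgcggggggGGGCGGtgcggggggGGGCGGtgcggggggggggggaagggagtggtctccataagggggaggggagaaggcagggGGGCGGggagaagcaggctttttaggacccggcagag

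The TATAAA of Igfbp4 begins 28 bases before the start, and the letters TATAAA occur on either strand in 12.4% of the 32841 RefSeq mouse promoters of this length. The Igfbp2 promoter shown holds GGGCGG at 3 places, and 8.47% of all promoters hold it at 3 or more. RefSeq has 2 promoters for Igfbp2, and the other, not shown, holds GGGCGG at 0 places. The last 19 bases printed for Igfbp5 lie within the first exon of the GENCODE gene. A full estrogen response element, searched on both strands as GGTCA and its reverse complement TGACC with 3 bases of any kind between them, was found in 0 of 13 promoters of the 9 genes and in 0.0639% of all promoters. The single element AGGTCA, present in 14.0% of all promoters, was found in promoters of Igf1, Igf2 and Igf1r. These matches are letters in a window and describe no binding.

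**Figure D1:**
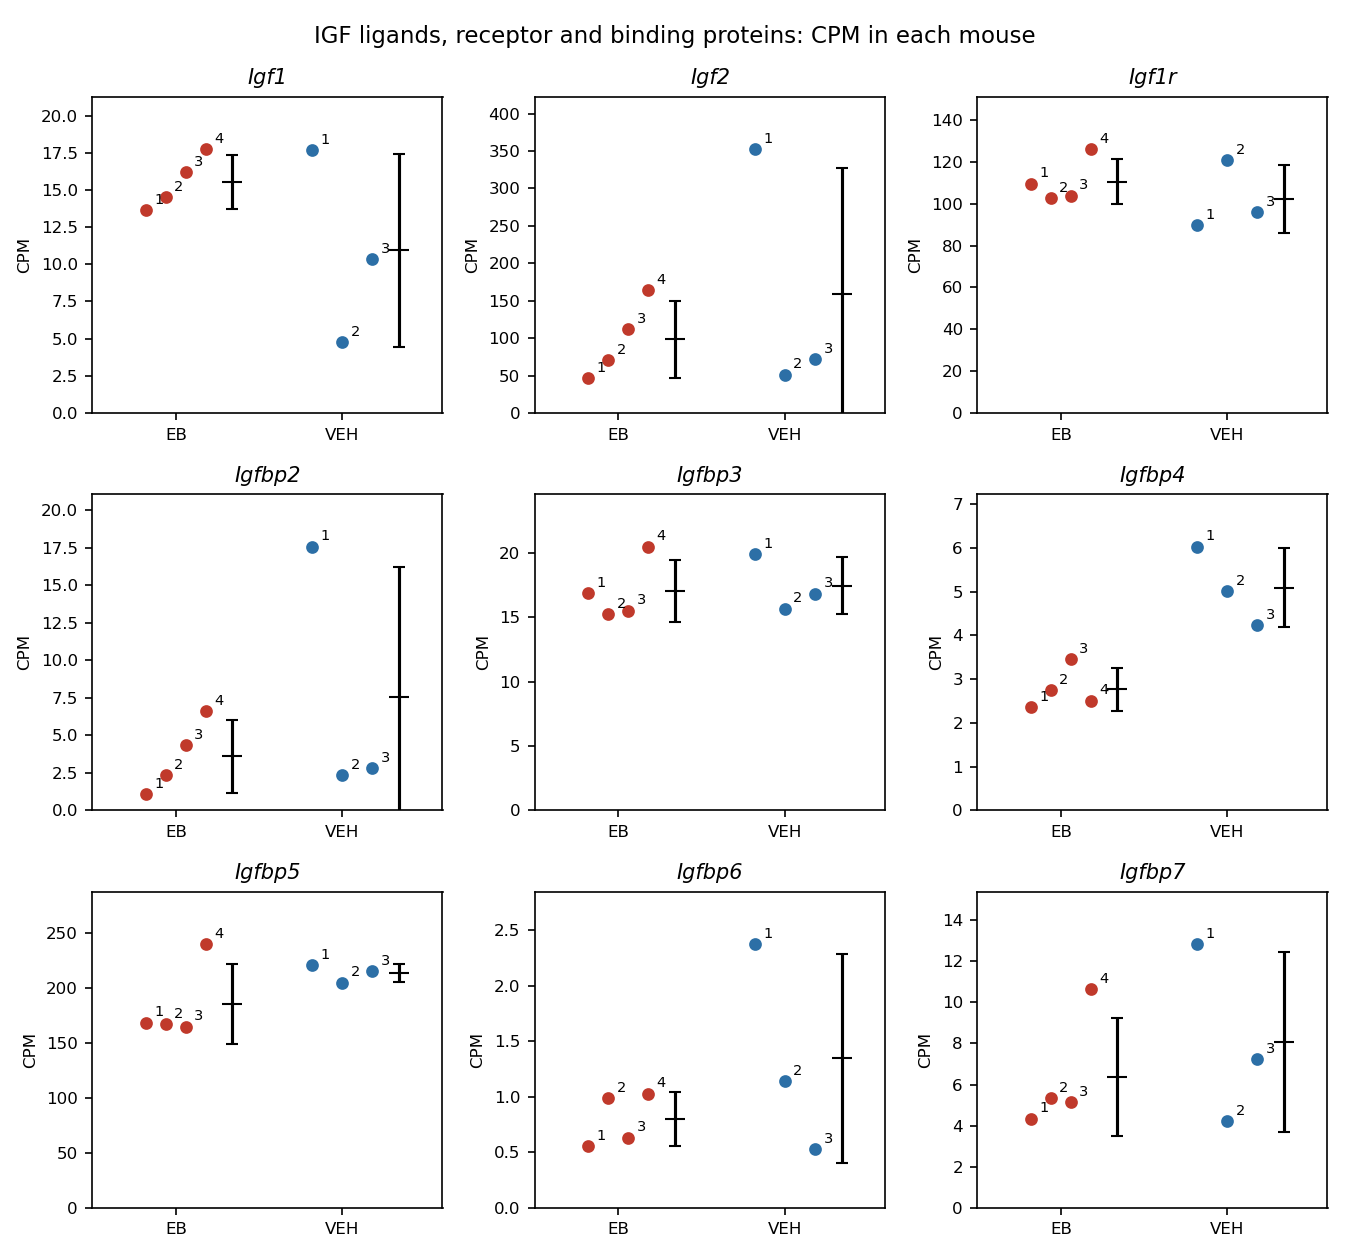
TMM-normalized CPM (vertical axes, from 0) of the 9 IGF genes in each mouse, 4 EB mice (red, left) and 3 VEH mice (blue, right), numbered by mouse, with black bars for mean ± SD (some lower ends fall below the axis). Igfbp4 is the gene whose groups are apart, with 2.35 to 3.45 CPM in EB mice and 4.23 to 6.03 CPM in VEH mice, and VEH 1 is far above the other mice for Igf2 and Igfbp2.

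Igf1 encodes the ligand that mediates much of growth hormone action in peripheral tissue and acts locally in the brain. It lies at chr10:87858265-87937042 on the plus strand of GRCm38. Igf1 had 13.6, 14.5, 16.2 and 17.7 CPM in the 4 EB libraries, against 17.7, 4.75 and 10.3 CPM in the 3 VEH libraries. The EB mice lay close together, whereas the VEH mice ran from 150 counts in VEH 2 to 455 counts in VEH 1, and the groups overlapped. Means were 15.5 ± 1.82 CPM with EB (SD, n = 4) and 10.9 ± 6.49 CPM with VEH (SD, n = 3), a log2 change of 0.52 ± 0.36 (SE; 95% interval −0.30 to 1.34; adjusted p = 0.758). The estimate rested on single VEH mice: it was 1.08 without VEH 1 (adjusted p = 0.0795) and 0.14 without VEH 2. With the mean level of 14 endothelial markers as a covariate, Igf1 was called higher with EB (log2 1.19, adjusted p = 0.0125), in a fit that called 1.5% of all tested genes. With markers of mural cells (log2 0.87, adjusted p = 0.206), fibroblasts (0.83, 0.111) or pituitary (0.71, 0.590) as the covariate, Igf1 was not called. The endothelial markers summed to 102 to 134 CPM in EB libraries and 121 to 176 CPM in VEH libraries. Of the 14, 12 had a negative estimate, 6 had an unadjusted p under 0.05 (9.04% of all tested genes), and none was at 0 in any library. The 3 genes whose log2 CPM followed Igf1 most closely over the 7 libraries were Podxl (Pearson r = 0.987), Bace2 (0.986) and Wnt5a (0.984).

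Igf2 encodes the second ligand and is an imprinted gene at chr7:142650766-142666816 on the minus strand. Its level was 46.5, 70.5, 112 and 164 CPM in the EB libraries, against 352, 51.3 and 72.1 CPM in the VEH libraries. VEH 1 alone held 9068 Igf2 counts, more than any other library, and the remaining 2 VEH mice lay within the range of the EB mice. The means were 98.2 ± 51.4 CPM with EB (SD, n = 4) and 159 ± 168 CPM with VEH (SD, n = 3), and the log2 change was −0.69 ± 0.85 (SE; 95% interval −2.84 to 1.46; adjusted p = 0.898). Without VEH 1 the sign turned, to 0.66. In the GENCODE annotation 62.8% of the Igf2 exon bases are shared with the same-strand gene Gm49394, not analysed here, and 1.71% with the antisense gene Igf2os. The sources used here do not say how the counting treated strand and shared bases, so the absolute level of Igf2 is uncertain.

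The level of Igf2 followed fibroblast markers across mice. The 12 fibroblast markers summed to 42.3, 84.8, 153 and 234 CPM in EB 1 to EB 4, against 462, 63.4 and 112 CPM in VEH 1 to VEH 3. All 12 were tested, all 12 had a negative estimate (median log2 −0.77), 0 were called and none was at 0. Over the 7 libraries, Igf2 and the mean log2 level of these markers were related with a Pearson r of 0.981 and a Spearman rho of 1 (two-sided exact permutation p = 0.000198 and 0.000397, adjusted 0.0107 and 0.0214 over the 108 relations computed). The r was 0.987 without VEH 1 and EB 1, the mice farthest from the median marker level, and 0.983 after removal of the group means. With the marker level as a covariate the log2 change of Igf2 was 0.13. The genes that followed Igf2 most closely were Phldb2 (r = 0.995), the fibroblast marker Fmod (0.992) and Thbd (0.991).

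Igf1r encodes the receptor tyrosine kinase that both ligands activate and lies at chr7:67952827-68233668 on the plus strand. It was among the steadier genes of the family. Igf1r had 110, 103, 104 and 126 CPM in the EB libraries, against 89.9, 121 and 95.9 CPM in the VEH libraries, and the groups overlapped. The log2 change was 0.11 ± 0.11 (SE; 95% interval −0.12 to 0.34; adjusted p = 0.836), on means of 111 ± 10.8 CPM with EB (SD, n = 4) and 102 ± 16.4 CPM with VEH (SD, n = 3). The interval reaches no further than 0.34 on the log2 scale, the narrowest of the 9 genes. Its closest genes were Repin1 (r = 0.980), Sphk2 (0.970) and Nsa2 (0.968).

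Igfbp4 encodes a binding protein that mostly blocks IGF action until it is cut by the protease PAPP-A. The gene lies at chr11:99041244-99054392 on the plus strand. Its counts were 72, 89, 82 and 61 in the EB libraries, against 155, 158 and 96 in the VEH libraries, which made 2.35, 2.74, 3.45 and 2.51 CPM with EB and 6.03, 5.004 and 4.23 CPM with VEH. Every EB mouse was below every VEH mouse. The summed level of 10 microglia markers separated the groups in the same direction, with 155 to 173 CPM in EB libraries and 176 to 182 CPM in VEH libraries. Their mean log2 level, centred on the 7 libraries, did not, with EB 2 at 0.064 and VEH 3 at 0.053. Of these markers 10 were tested, 7 had a negative estimate, 0 were called and none was at 0, and their part in the result was not tested. The groups did not overlap for 1 of them, P2ry12 (9.1% of all tested genes). P2ry12 had 30.9 ± 3.72 CPM with EB (SD, n = 4) and 41.3 ± 0.877 CPM with VEH (SD, n = 3). Igfbp4 averaged 2.76 ± 0.487 CPM with EB (SD, n = 4) and 5.09 ± 0.902 CPM with VEH (SD, n = 3), 0.539 times the VEH level, and the log2 change was −0.89 ± 0.24 (SE; 95% interval −1.40 to −0.38). The unadjusted p was 0.00230, the gene ranked 304 by p among all tested genes, and the adjusted p of 0.139 missed the threshold. DESeq2 called it (log2 −0.88, adjusted p = 0.0481), and limma-voom gave an adjusted p of 0.161. The estimate kept its sign with each library left out in turn (−1.005 to −0.77, adjusted p 0.127 to 0.383) and under the other alternatives tried (adjusted p 0.0481 to 0.399). The genes most like it were Tmem184b (r = 0.986), Tsc22d1 (0.981) and Echdc1 (0.964). Because the Igfbp4 groups were apart, these r values over all 7 libraries also take in the difference between EB and VEH.

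Igfbp5 encodes a binding protein that attaches to extracellular matrix and can enhance or block IGF action. It lies on chromosome 1 at 72857932 to 72874884 on the minus strand, tail to tail with Igfbp2 and 5457 bases from it. Igfbp5 had 169, 167, 165 and 240 CPM in the EB libraries, against 221, 205 and 215 CPM in the VEH libraries. EB 1 to EB 3 were close together and below every VEH mouse, and EB 4 was above every other mouse. The means were 185 ± 36.5 CPM with EB (SD, n = 4) and 214 ± 8.17 CPM with VEH (SD, n = 3), and the log2 change was −0.21 ± 0.12 (SE; 95% interval −0.46 to 0.05; adjusted p = 0.662). Without EB 4, Igfbp5 was called lower with EB, by −0.36 on the log2 scale (adjusted p = 0.0266), in a fit that called 0.739% of all tested genes.

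By their mean log2 level, pituitary markers ordered the mice in a like way to Igfbp5. EB 4 was highest in both, followed by VEH 1, VEH 3 and VEH 2, with EB 1 to EB 3 lowest in both. By the same measure, astrocyte markers ordered the mice as Igfbp5 did, except that VEH 3 was above VEH 1. The part of either list in the result was not tested. The 10 pituitary markers summed to 3.72 to 31.2 CPM in EB libraries and 8.93 to 16.1 CPM in VEH libraries. Only 5 of the 10 passed the filter. Cga, the shared alpha subunit of the glycoprotein hormones, had 7, 19, 3 and 448 counts in the EB libraries, against 158, 73 and 88 in the VEH libraries. Growth hormone (Gh) and prolactin (Prl), the most abundant products of the anterior pituitary, were at 0 in every library except VEH 3, with 34 and 53 counts. With the pituitary marker level as a covariate, the log2 change of Igfbp5 was −0.081 (adjusted p = 0.737). It was −0.077 with the endothelial, −0.13 with the mural and −0.17 with the fibroblast marker level. The mice fell into separate clusters on these measures, so no pooled correlation is given for Igfbp5. By order of likeness its closest genes were Hspb8, Wasf2 and Cga itself, which rests on the same clusters.

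**Figure D2:**
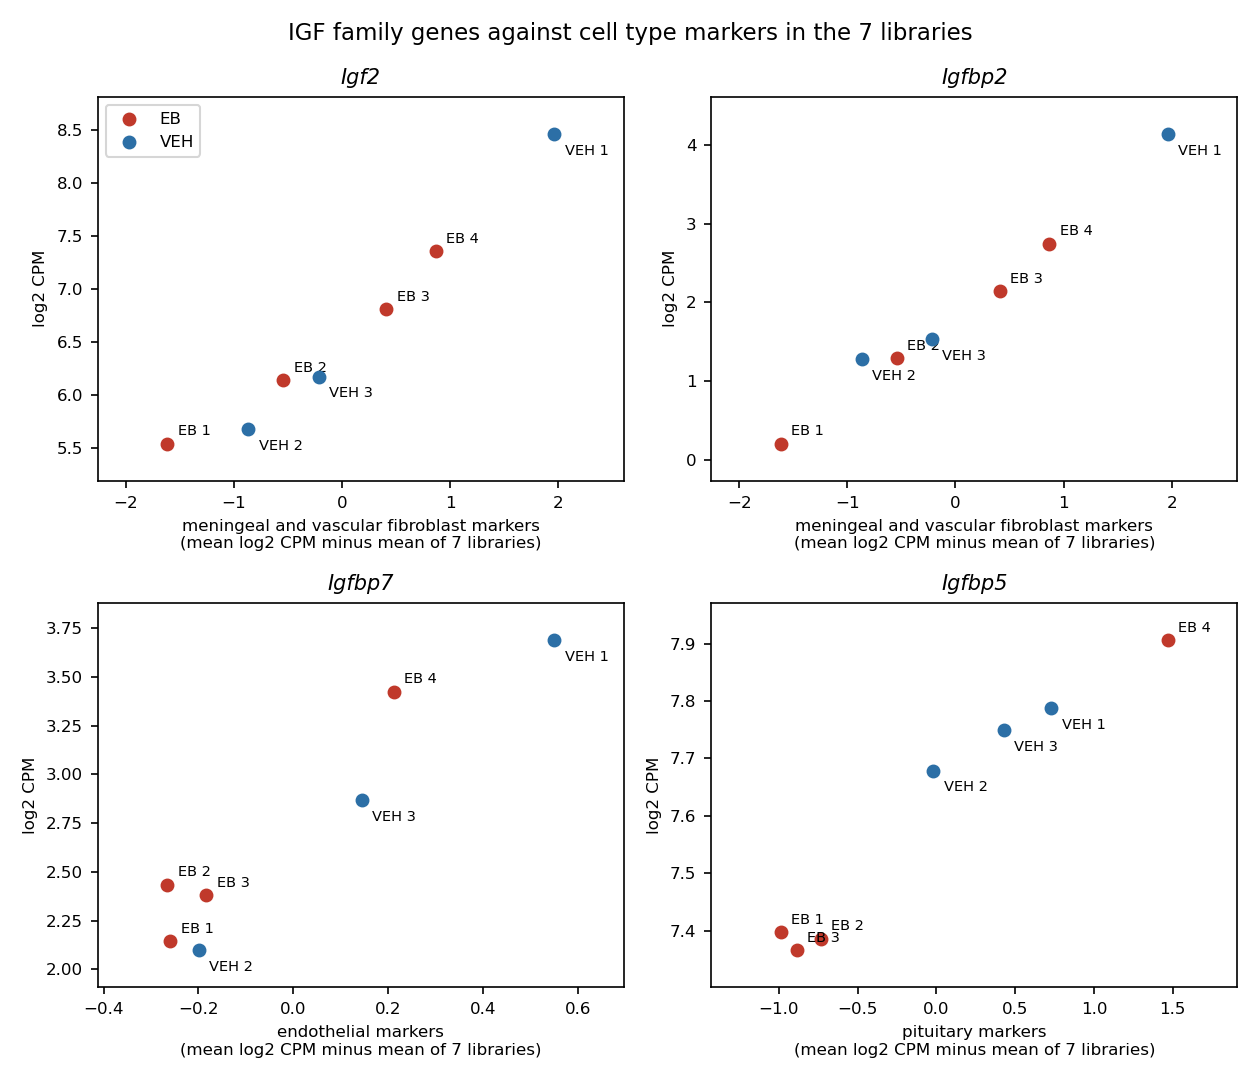
Log2 CPM of Igf2, Igfbp2, Igfbp7 and Igfbp5 (vertical axes) against the mean log2 CPM of a marker list, centred on the mean of the 7 libraries (horizontal axes), for EB mice (red) and VEH mice (blue). Igf2 and Igfbp2 rank the 7 mice in the same order as fibroblast markers, with VEH 1 highest and EB 1 lowest in both.

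Igfbp2 encodes an abundant binding protein of cerebrospinal fluid and lies on chromosome 1 at 72824503 to 72852474 on the plus strand. It had 1.08, 2.37, 4.34 and 6.63 CPM in the EB libraries, against 17.6, 2.34 and 2.82 CPM in the VEH libraries. As for Igf2, VEH 1 was the highest mouse, with 452 counts, and EB 1 the lowest, with 33. Igfbp2 averaged 3.60 ± 2.42 CPM with EB (SD, n = 4) and 7.58 ± 8.66 CPM with VEH (SD, n = 3), and the log2 change was −1.11 ± 0.95 (SE; 95% interval −3.47 to 1.24; adjusted p = 0.824). Without VEH 1 the estimate was 0.42. Its relation with fibroblast markers had a Pearson r of 0.991 and a rho of 1, with the exact permutation p-values given for Igf2, and the r was 0.975 without VEH 1 and EB 1 and 0.993 after removal of the group means. With the marker level as a covariate its log2 change was −0.21. Igf2 and Igfbp2 had a Pearson r of 0.977 with each other. Among the 50 genes most like Igfbp2, 9 of the 12 fibroblast markers were found, and among those most like Igf2, 7 of the 12. The closest genes were Thbd (r = 0.993), Tns2 (0.991) and Aebp1 (0.991).

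Within groups, the log2 SD of Igfbp2 was 1.32, above that of 97.9% of tested genes, and that of Igf2 was 1.12, above 95.5%. Igf1r (0.176), Igfbp3 (0.187), Igfbp5 (0.206) and Igfbp4 (0.243) were near the middle of the genes tested, with 37.7%, 40.4%, 44.2% and 51.1% of genes below them. Igf1, Igfbp7 and Igfbp6 lay between, at 0.61, 0.67 and 0.71.

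Igfbp3 encodes the chief carrier of IGFs in blood, where it forms a complex with the acid-labile subunit. It lies at chr11:7206086-7213923 on the minus strand. Its level was 16.9, 15.2, 15.5 and 20.5 CPM in the EB libraries, against 19.9, 15.6 and 16.8 CPM in the VEH libraries. The groups covered nearly the same range, with a log2 change of −0.04 ± 0.14 (SE; 95% interval −0.34 to 0.27; adjusted p = 0.973) on means of 17.0 ± 2.41 CPM with EB (SD, n = 4) and 17.4 ± 2.18 CPM with VEH (SD, n = 3). Its sign was not fixed and turned under 8 of 22 alternatives, all with estimates close to 0. Txnip (r = 0.972), Arhgap31 (0.969) and Rnf213 (0.969) followed it most closely.

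Igfbp6 encodes a binding protein that prefers IGF2 to IGF1 and lies at chr15:102144362-102149511 on the plus strand. It was the gene with the fewest counts, 17, 32, 15 and 25 in the EB libraries, against 61, 36 and 12 in the VEH libraries. The lowest and the highest mouse were both in the VEH group. Its means were 0.800 ± 0.242 CPM with EB (SD, n = 4) and 1.35 ± 0.939 CPM with VEH (SD, n = 3), and the log2 change of −0.76 ± 0.50 (SE; 95% interval −1.83 to 0.31; adjusted p = 0.727) was −0.14 without VEH 1. The interval holds both 0 and the estimate for Igfbp4. The genes most like Igfbp6 were Mpdz (r = 0.983), Ufl1 (0.981) and E2f5 (0.976).

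Igfbp7 encodes a secreted protein of vessel walls and lies at chr5:77349240-77408041 on the minus strand, where 7.03% of its exon bases overlap Polr2b on the other strand. It had 4.34, 5.33, 5.14 and 10.7 CPM in the EB libraries, against 12.8, 4.21 and 7.22 CPM in the VEH libraries. EB 4 and VEH 1 were the highest mice, and the groups overlapped. The means were 6.37 ± 2.89 CPM with EB (SD, n = 4) and 8.09 ± 4.37 CPM with VEH (SD, n = 3), and the log2 change was −0.35 ± 0.40 (SE; 95% interval −1.25 to 0.56; adjusted p = 0.884). VEH 1, EB 4 and VEH 3 were the 3 highest mice both in Igfbp7 and in the endothelial markers described for Igf1, apart from the other 4. The same 3 mice were also highest in the summed markers of mural cells, astrocytes, tanycytes and ependymal cells, and pituitary. With the endothelial markers as a covariate the Igfbp7 estimate was 0.37. It was 0.055 with the mural, −0.024 with the fibroblast and 0.0024 with the pituitary markers. The genes that followed Igfbp7 most closely were Cebpd (r = 0.995), Ctcf (0.987) and Fn1 (0.985).

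**Figure D3:**
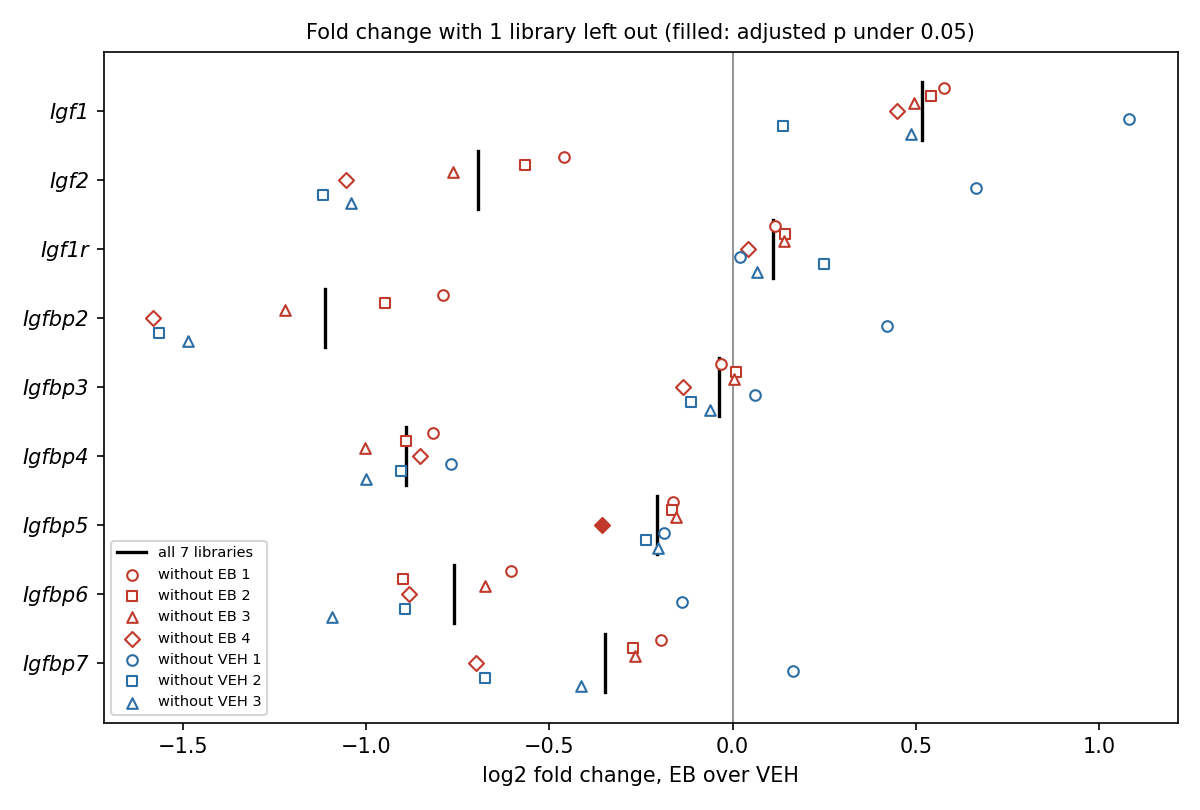
Log2 fold change of EB over VEH (horizontal axis) for each IGF gene (rows) with all 7 libraries (black line) and with 1 EB library (red) or 1 VEH library (blue) left out, filled where the adjusted p was under 0.05. Igf2, Igfbp2, Igfbp3 and Igfbp7 change sign without VEH 1, Igfbp4 stays between −1.005 and −0.77, and the filled point is Igfbp5 without EB 4.

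Per length, the levels of the 9 genes covered a wide range. On the scale of CPM per kilobase of exon, Igfbp5 was highest, at 30.8 ± 6.07 in EB mice (SD, n = 4) and 35.6 ± 1.36 in VEH mice (SD, n = 3). Igf2 came next, at 17.2 ± 8.98 with EB and 27.7 ± 29.4 with VEH. Their ranges overlapped in EB mice, with a lowest value of 27.5 for Igfbp5 and a highest of 28.6 for Igf2, but within a mouse Igfbp5 was above Igf2 in 4 of 4 EB mice and 2 of 3 VEH mice, the exception being VEH 1. Igf1r, Igfbp3 and Igfbp7 formed a middle group with overlapping ranges, at 6.58 ± 0.642, 5.43 ± 0.769 and 5.27 ± 2.39 with EB and at 6.09 ± 0.976, 5.57 ± 0.695 and 6.69 ± 3.62 with VEH. Igfbp2 had 1.95 ± 1.31 with EB and 4.10 ± 4.69 with VEH, and Igf1 had 1.57 ± 0.184 with EB and 1.10 ± 0.655 with VEH. Igfbp6 had 0.720 ± 0.217 with EB and 1.21 ± 0.844 with VEH, and Igfbp4 had 0.626 ± 0.110 with EB and 1.15 ± 0.204 with VEH. Igfbp4 had the lowest mean in EB mice and Igf1 in VEH mice. In both groups every mouse had more Igf2 than any had Igf1r. From Igfbp2 down, neighbours in the order overlapped in both groups, except that in EB mice the ranges of Igf1 and Igfbp6 were apart. By these values the receptor was more abundant per length than Igf1 and, in the mean, less abundant than Igf2. The place of Igf2 against Igfbp5 and Igf1r is uncertain, because 62.8% of its exon bases are shared with Gm49394 and their counting is not known.

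**Figure D4:**
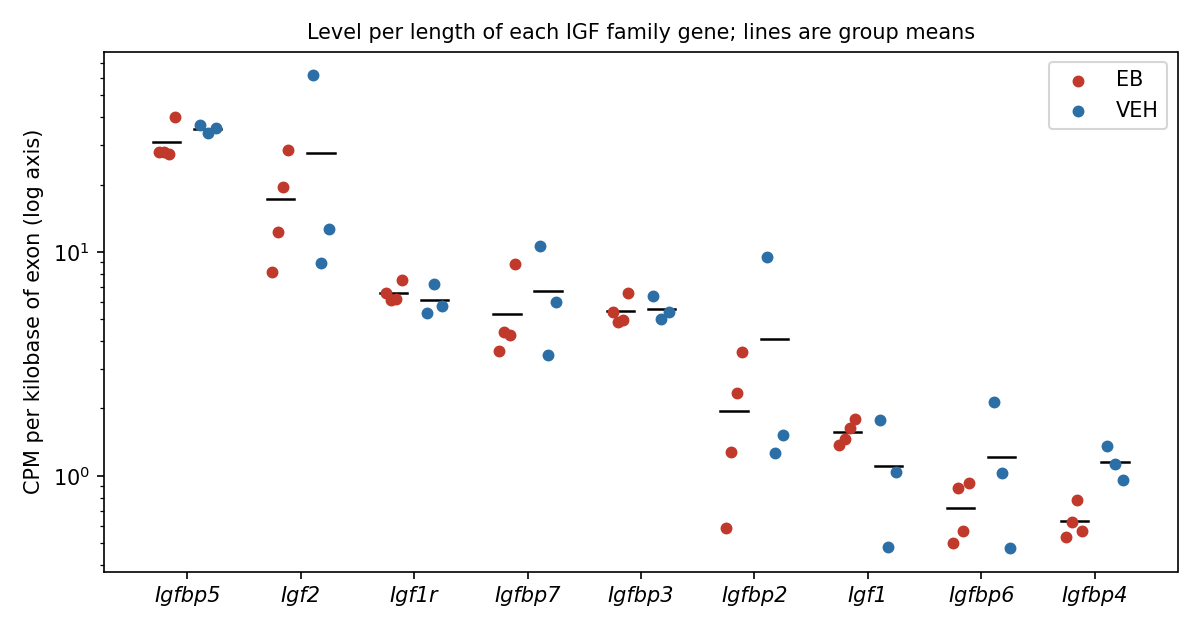
Level of each IGF gene in CPM per kilobase of exon (log axis), 1 point per mouse for EB (red) and VEH (blue), with lines at group means, ordered by the mean over all mice. Igfbp5 and Igf2 lead, at 30.8 and 17.2 in the mean of EB mice, and Igfbp4 has the lowest mean over all mice, at 0.626 in EB mice and 1.15 in VEH mice. The absolute level of Igf2 is uncertain because of shared exon bases.

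Around these 9 genes, 65 of 73 other genes of the IGF axis were tested, and 1 was called, against the 0.952% called among all tested genes. That gene was Irs2, an adaptor that carries the signal of the IGF1 and insulin receptors to PI3 kinase. Irs2 rose to 314 ± 18.96 CPM with EB (SD, n = 4), against 140 ± 3.51 CPM with VEH (SD, n = 3), a log2 change of 1.16 ± 0.07 (SE; adjusted p = 1.09e-06). Its counts were 9979, 9298, 7537 and 7939 in the EB libraries, against 3504, 4458 and 3247 in the VEH libraries, so every EB mouse was above every VEH mouse. No other of the 14 receptor substrates and adaptors was called. Irs1, with a log2 change of 0.12, and Irs4, with −0.09, had groups that overlapped, and Grb14, an inhibitory adaptor of the insulin receptor, was 11.2 ± 1.52 CPM with EB (SD, n = 4) and 14.6 ± 0.914 CPM with VEH (SD, n = 3), with a log2 change of −0.38 (adjusted p = 0.397). The median over the 65 genes was 0.02, 11 of the 65 had an unadjusted p under 0.05 (9.04% of all tested genes), and the groups did not overlap in 11 (9.1% of all tested genes). By limma-voom 1 of the 65 was called, where that tool called 0.816% of all genes. By DESeq2 4 were called, where that tool called 2.68% of the genes it gave an adjusted p.

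In the list of proteases linked to IGF-binding proteins and of protease inhibitors, 0 of 8 genes were called by edgeR (0.952% of all tested genes). Of the 8, 3 had an unadjusted p under 0.05 (9.04% of all) and 4 had groups that did not overlap (9.1% of all). By limma-voom 0 of the 8 were called (0.816% of all tested genes). By DESeq2 2 were called, Pappa and Plat (2.68% of the genes it gave an adjusted p). Pappa encodes PAPP-A, the protease that cuts IGFBP4. Its counts were 107, 143, 66 and 74 in the EB libraries, against 169, 215 and 149 in the VEH libraries. Pappa averaged 3.43 ± 0.713 CPM with EB (SD, n = 4) and 6.65 ± 0.141 CPM with VEH (SD, n = 3), a log2 change of −0.94 ± 0.21 (SE; adjusted p = 0.0606). DESeq2 called it (adjusted p = 0.00650), and the adjusted p ran from 0.0510 to 0.191 with 1 library left out. Igfbp4 and its protease gene each had every EB mouse below every VEH mouse, as had 3.99% of all tested genes. Neither gene passed the threshold of the main test, and a link between them was not tested. The summed microglia markers separated the groups in the same direction, but their mean log2 level did not. Plat, the tissue plasminogen activator, had 24.3 ± 4.00 CPM with EB (SD, n = 4) and 37.5 ± 5.71 CPM with VEH (SD, n = 3), a log2 change of −0.63 ± 0.14 (SE; adjusted p = 0.0523). It was called by DESeq2 (adjusted p = 0.00155) and without EB 4 (0.0215). Stc1, a stanniocalcin of the family that inhibits PAPP-A, had an estimate of 0.44 on the log2 scale (95% interval 0.10 to 0.78; adjusted p = 0.350), with no overlap between groups.

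The other receptors and carriers gave 0 calls of 4 tested by edgeR (0.952% of all tested genes) or limma-voom (0.816%). By edgeR 0 had an unadjusted p under 0.05 (9.04% of all). DESeq2 called none of them either, but it did not give every tested gene an adjusted p. Igf2r, which clears IGF2 by taking it to lysosomes, had 58.6 ± 3.25 CPM with EB (SD, n = 4) and 56.6 ± 3.99 CPM with VEH (SD, n = 3), a log2 change of 0.05 (adjusted p = 0.932). The insulin receptor gene Insr had a log2 change of −0.04. Insrr, the insulin receptor-related receptor, had 9, 12, 4 and 8 counts in EB libraries, against 54, 0 and 0 in VEH libraries, so its estimate of −1.18 (adjusted p = 0.822) rested on VEH 1. Igfbp1, the remaining binding protein of the family, was too low to test, with 2, 7, 0 and 0 counts in EB libraries and 0 in every VEH library. Of the 3 mRNA-binding proteins tested, the log2 estimate was 0.17 for Igf2bp3 (adjusted p = 0.848) and −0.18 for Lin28b (adjusted p = 0.821).

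In the relay below the receptor, 0 of 36 genes were called by edgeR (0.952% of all tested genes), and the median log2 change was 0.03. Map2k1, the kinase that activates ERK, had 224 ± 5.78 CPM with EB (SD, n = 4) and 189 ± 9.78 CPM with VEH (SD, n = 3), a log2 change of 0.25 ± 0.06 (SE; adjusted p = 0.120). Pik3r1, a regulatory subunit of PI3 kinase, had 351 ± 28.3 CPM with EB (SD, n = 4) and 410 ± 16.98 CPM with VEH (SD, n = 3), with a log2 change of −0.22 (adjusted p = 0.232). Both had groups that did not overlap. Of the 36, 5 had an unadjusted p under 0.05, against 9.04% of all tested genes. DESeq2, which called 2.68% of the genes it gave an adjusted p, called Map2k1 (adjusted p = 0.0122). Limma-voom called 0 of the 36 (0.816% of all tested genes).

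**Figure D5:**
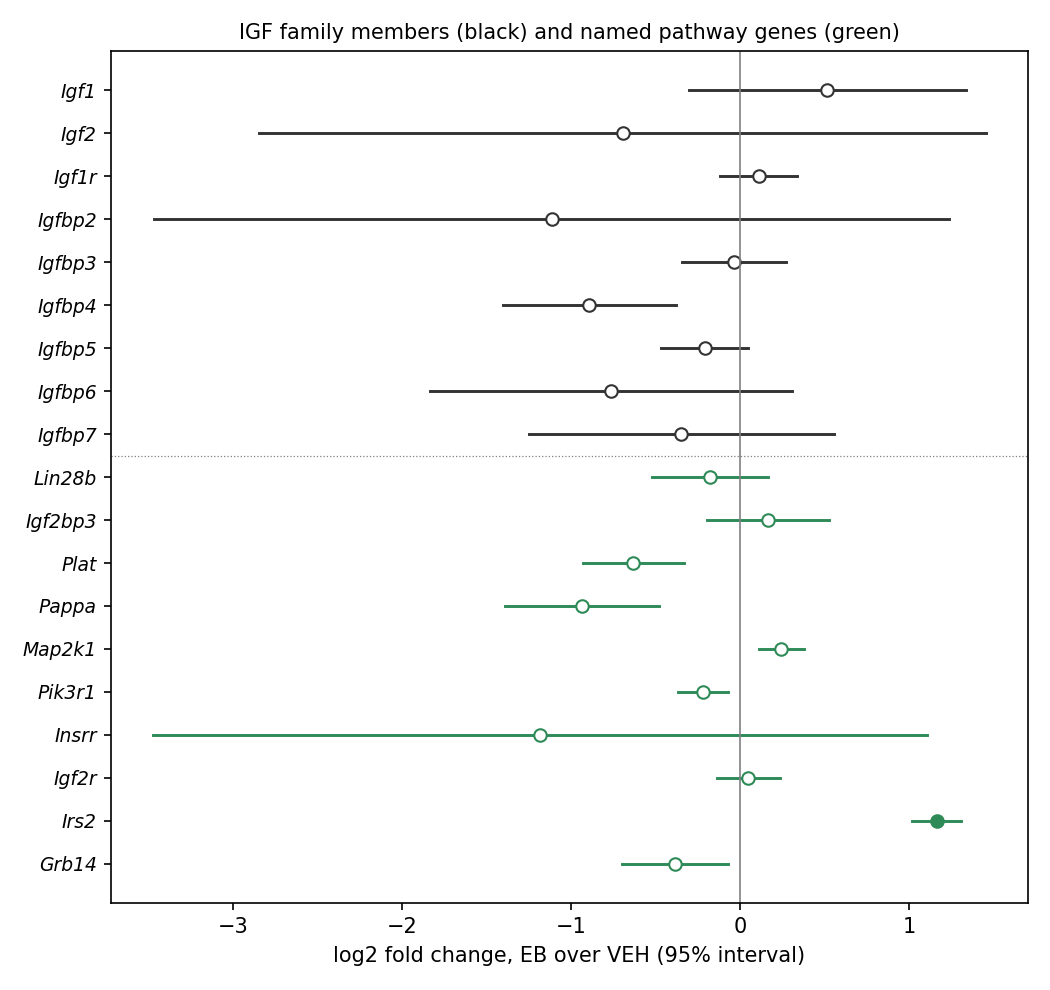
Log2 fold change of EB over VEH with its 95% interval for the 9 IGF genes (black) and the named genes of the pathway (green), filled where the adjusted p was under 0.05. Irs2 is the filled point, at 1.16, and of the other genes drawn, the intervals of Igfbp4, Pappa, Plat, Map2k1, Pik3r1 and Grb14 do not reach 0.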

How the data were processed

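The authors deposited raw counts per gene, whole numbers with no normalization, for 7 VMHvl libraries of 1 mouse each. HISAT2, HTSeq, DESeq2 and the mm10 build are named, per the submitters' processing notes. The sources used here give no versions, annotation or strand setting.

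Genes were filtered with filterByExpr (minimum count 10), TMM-scaled and tested in R 4.3.3 with edgeR 4.0.16 (estimateDisp, then a robust glmQLFit on bias-adjusted deviances and glmQLFTest) with no covariate. Calls took a threshold of 0.05 on p-values adjusted by Benjamini-Hochberg across the 18387 genes tested. Adjusted p-values of single genes come from edgeR where no other tool is given. Standard errors are the absolute log2 change over the square root of F, and intervals are 95% t intervals from them. Replicate pairs differed by a chi-square per degree of freedom of 17.0 to 166, above sampling noise.

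The 9 genes, the pathway and marker lists and the tests were chosen with earlier results of these data known. All 9 are named, as are each called pathway gene, the 2 per list with the smallest p, and the 3 genes most correlated with each member (log2 CPM, mean CPM of at least 1). Insr, Irs1, Irs4, Stc1 and Igfbp1 were named outside this rule after their values were seen. So were the marker genes Nr5a1, P2ry12, Cga, Gh, Prl, Scn7a, Col23a1, Foxj1, Frzb, Rax and Crym. Marker levels were compared with members by exact permutation over 7 libraries. Alternatives were DESeq2 1.42.0, limma-voom (limma 3.58.1), other scalings and filters, marker covariates and each library left out. Positions are from GENCODE on GRCm38, the assembly also named mm10, and promoters from RefSeq. Figures were drawn with matplotlib 3.10.9.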

Additional observations from a re-analysis of the deposited data

Results flagged for a closer look

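In the EB group, 1 mouse lay far from the others in 5 of 24 sets of values examined, and it was EB 4 each time; chance flags about 1 in 20 such sets. Igfbp5 was 239.8 CPM in EB 4 and 165 to 169 CPM in the other EB mice. Igfbp7 was 10.7 CPM in EB 4 and 4.34 to 5.33 CPM in the others. Of the summed marker levels, endothelial markers were 134 CPM in EB 4 and 102 to 107 CPM in the others, tanycyte and ependymal markers were 124 CPM and 49.3 to 54.5 CPM, and pituitary markers were 31.2 CPM and 3.72 to 6.45 CPM. In the tanycyte and ependymal list, Scn7a alone had 1791 counts in EB 4, against 520, 683 and 465 in EB 1 to EB 3. Of the EB libraries, EB 4 also had the most counts of Col23a1, Foxj1 and Frzb, but the fewest of Rax and Crym. The 5 flagged values come from the same library and are not independent of each other. The VEH group, with 3 mice, was too small for this check.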

How the results depend on the processing

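No paired analysis was possible because no replicate numbers in the labels tie EB mice to VEH mice. The legacy deviances, the pituitary covariate and the removal of VEH 1 and EB 4 together were chosen after seeing the data. Of the 197 log2 changes of IGF genes under alternatives, 174 kept their direction and side of the threshold. The 197 include the main fit read at a threshold of 0.1 and the fit without robust fitting. The log2 changes of both are those of the main fit, so their direction could not turn. DESeq2 gave no adjusted p for Igfbp6, which has no value there.

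The number of IGF genes called was 0, and 1 with DESeq2 (Igfbp4) and with the endothelial covariate (Igf1); with 1 library left out it was 0 to 1 (Igfbp5 without EB 4). Called pathway genes numbered 1, and 4 with DESeq2, 3 without the filter and at an adjusted p under 0.1, 2 with upper quartile scaling, a mean CPM of at least 1, the endothelial covariate and the mural covariate, and 1 to 2 with 1 library left out. Of all genes 175 were called, and 359 with DESeq2, 375 without the filter, 275 with the endothelial covariate and 102 (without VEH 3) to 152 with 1 library left out (107 without EB 1).

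The direction turned for Igf2 with the endothelial (0.70), mural (0.27) and fibroblast (0.13) covariates and without VEH 1 and EB 4 (0.31); for Igf1r without these 2 (−0.044); for Igfbp2 with the endothelial covariate (0.40); for Igfbp3 with library totals (0.017) and the endothelial (0.13), mural (0.066), fibroblast (0.020) and pituitary (0.072) covariates; and for Igfbp7 with the endothelial (0.37), mural (0.055) and pituitary (0.0024) covariates. With 1 library left out, log2 changes ran from −1.12 to 0.66 for Igf2, −1.58 to 0.42 for Igfbp2, −0.14 to 0.062 for Igfbp3 and −0.70 to 0.17 for Igfbp7. The cause was not tested. Igfbp6 had the fewest counts of the 9 genes, 12 to 61 a library.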
